A study of Rattus norvegicus with 4 samples.

Results

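The transcripts described here are those of 9 genes of the p53 pathway: Mdm2 and Mdm4, the regulators of the p53 protein, and 7 genes that p53 is known to switch on and that lie outside the BCL2 family, Cdkn1a, Ccng1, Gadd45a, Sesn1, Phlda3, Fas and Tnfrsf10b. They were taken by gene symbol from an expression table of 18699 genes, and all 9 were found. The transcript of p53 itself is not among them and was not analysed here. RNA came from cultured ventricular heart muscle cells of newborn Sprague Dawley rats, 1 to 3 days old, of wild-type genotype. The carfilzomib group held 2 libraries from cells given 1 µM of the drug for 24 h, and the vehicle group held 2 libraries from cells given vehicle for the same time. Both groups had grown in 15% serum with 0.1 mM bromodeoxyuridine, a nucleoside analogue used against dividing non-muscle cells. The controls carried it too, and no library without it was compared. Carfilzomib is an irreversible proteasome inhibitor used against multiple myeloma, and the study asks how it harms heart cells.

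p53 is a transcription factor that is made continuously and destroyed continuously: the ubiquitin ligase MDM2 binds it, blocks its activity and sends it to the proteasome, and the related protein MDM4 binds it and blocks its activity without being an efficient ligase itself. Mdm2 is in turn a p53 target, which closes a feedback loop. When p53 accumulates it can raise genes that stop the cell cycle (Cdkn1a), take part in DNA damage signalling and growth arrest (Gadd45a, Ccng1), limit mTORC1 signalling (Sesn1), hold back AKT at the membrane (Phlda3), or expose the cell to death ligands (Fas, Tnfrsf10b). Several of these genes also answer to other stress pathways, so their transcripts are not a measure of p53 alone.

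Library totals lay between 18655499 and 18884362 estimated counts. The labelled cell type was checked on 10 cardiomyocyte markers, all of which were detected. Of these, 9 were lower with carfilzomib. The summed level of all 10 was 16759 to 17766 TPM in carfilzomib libraries and 34600 to 35035 TPM in vehicle libraries. TPM is a level per gene length, scaled to the same total in each library. Nppa, the marker that was not called, held 9971 to 10628 TPM with carfilzomib and 10081 to 10488 TPM with vehicle. The sums therefore understate the fall of the other 9. Markers of other cells were present too. The summed level of 8 fibroblast markers was 5384 to 5615 TPM with carfilzomib and 10078 to 10080 TPM with vehicle, and that of 5 smooth muscle markers was 2047 to 2105 TPM with carfilzomib and 5714 to 5840 TPM with vehicle. All 8 and all 5 of these were lower by the test described below. Endothelial markers (6 genes) summed to 32.1 to 32.3 TPM with carfilzomib and 31.9 to 33.0 TPM with vehicle, and macrophage markers (6 genes) to 46.7 to 51.4 TPM with carfilzomib and 61.0 to 63.5 TPM with vehicle. Of the endothelial markers 1 was higher and 2 lower, and of the macrophage markers 1 was higher and 5 lower. Tek, the endothelial marker that rose, held 14.6 and 14.8 TPM with carfilzomib and 11.5 and 11.1 TPM with vehicle. Cd14, the macrophage marker that rose, held 28.8 and 25.1 TPM with carfilzomib and 19.3 and 18.6 TPM with vehicle. These 2 sums therefore understate the falls in their lists. Counts of both genes carried decimals, which are described below. The part that the mix of cells plays in the results below was not tested. In such bulk RNA, fewer cells of a type and less RNA per cell cannot be told apart. The labels do not say that replicate libraries were grown separately or came from different animals. The p-values therefore measure only how far these libraries spread, which may be technical.

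Of the 9 genes, 6 rose with carfilzomib (Mdm2, Cdkn1a, Ccng1, Gadd45a, Sesn1 and Fas) and 0 fell. The count of falls was also 0 in edgeR at an unadjusted p under 0.05 and in DESeq2, but 1, Phlda3, without vehicle replicate 1. Mdm4, Phlda3 and Tnfrsf10b did not pass the test. The rises ran from 1.18-fold for Fas to 2.33-fold for Mdm2, and the median log2 fold change of the 9 genes was 0.39, against 0.00 over all 14519 genes tested. A gene counted as changed at an adjusted p under 0.05 in edgeR's quasi-likelihood test with Benjamini-Hochberg adjustment over all genes tested. By that rule 60.7% of all genes changed, 30.6% higher and 30.1% lower, so a count of 6 calls among 9 genes is near the background for calls in either direction. DESeq2 called 5 of the 9, all higher, against 44.7% of all genes, with 23.0% higher and 21.7% lower. With a replicate block 6 were called, against 56.7% of all genes. Leaving out carfilzomib replicate 1 gave 5 calls against 51.1%, leaving out carfilzomib replicate 2 gave 6 against 49.5%, leaving out vehicle replicate 1 gave 7 (6 higher and 1 lower) against 53.7%, and leaving out vehicle replicate 2 gave 6 against 52.0%. Groups of libraries did not overlap for 7 of the 9 genes, against 79.9% of all genes tested. All 9 genes passed the filter on low counts. In the values below, CPM are read counts scaled to effective library size, fold changes are carfilzomib over vehicle, and errors after ± are the SD over 2 libraries unless called SE.

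**Figure D1:**
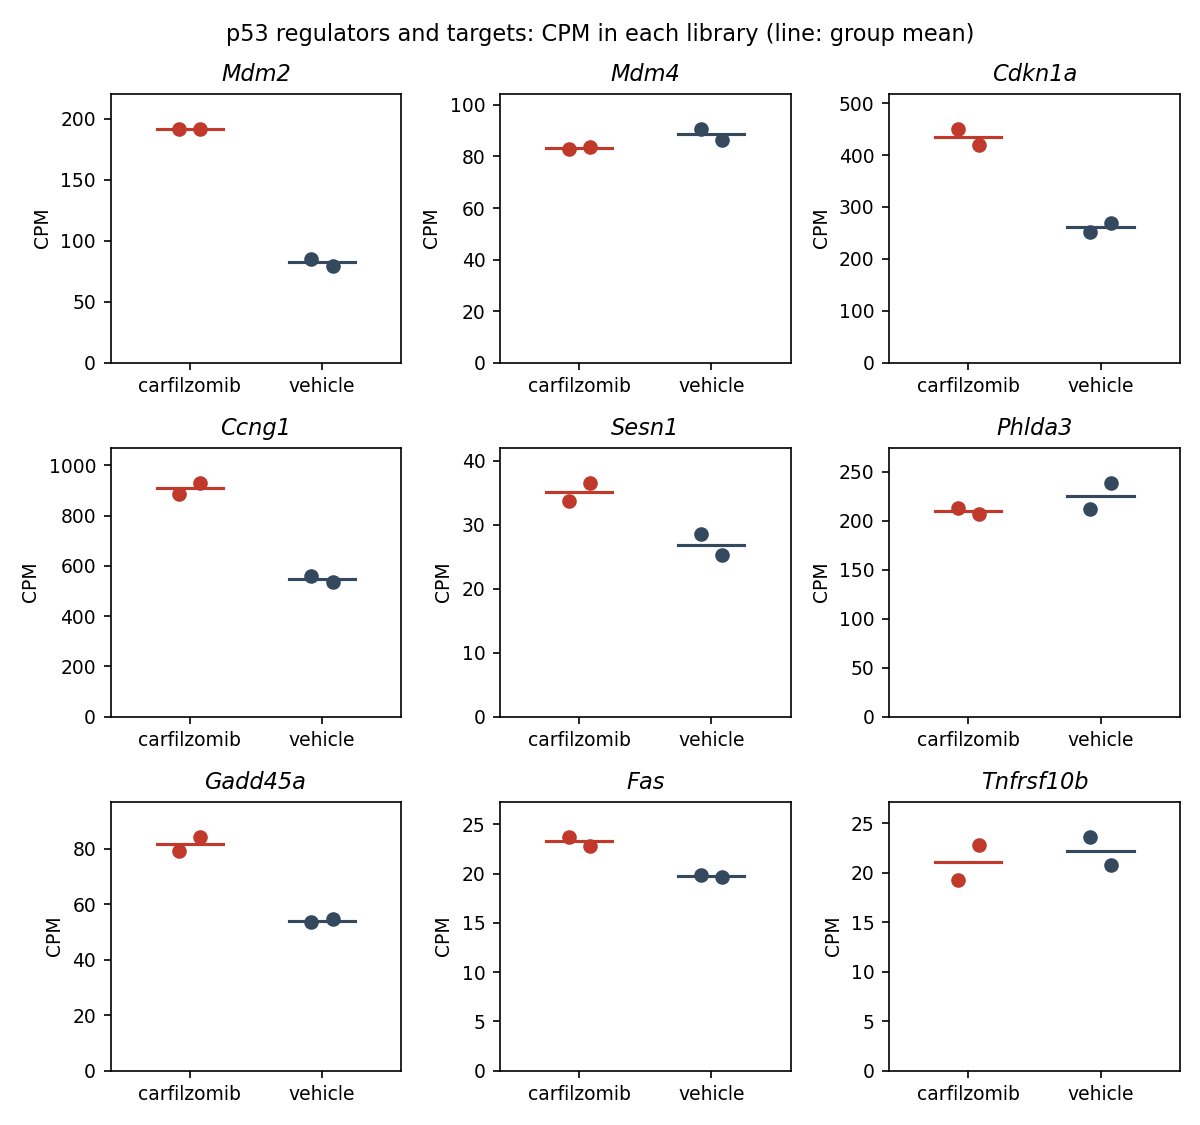
Level of each of the 9 genes in CPM (vertical axes, from 0) in each library: points are libraries, lines are group means, carfilzomib in red and vehicle in dark blue. For Mdm2 the 2 carfilzomib libraries both sit at 192 CPM, above both vehicle libraries at 85.2 and 79.4, whereas for Phlda3 and Tnfrsf10b the groups overlap.

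Mdm2 (gene ID 314856) had the largest rise of the 9 genes. Its level was 192 and 192 CPM in carfilzomib libraries 1 and 2, against 85.2 and 79.4 CPM in vehicle libraries 1 and 2, resting on 3658, 3617, 1582 and 1466 counts in that order. Both carfilzomib libraries were far above both vehicle libraries, and the replicates lay close together. The rise was 2.33-fold, a log2 fold change of 1.22 ± 0.05 (SE; edgeR adjusted p 1.75e-11). Of the tested genes, 2.62% had a higher log2 fold change. The authors' deposited table lists Mdm2 with a log2 fold change of 1.23.

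Mdm4 (gene ID 304798), the partner of MDM2 that restrains p53, was not called. Its level was 82.8 and 83.8 CPM with carfilzomib, against 90.8 and 86.4 CPM with vehicle. Both carfilzomib libraries lay slightly below both vehicle libraries, but the log2 fold change of -0.09 ± 0.05 (SE) was not called (edgeR adjusted p 0.162; 95% interval -0.21 to 0.02). Mdm2 stood at 6.60 and 6.51 times the TPM of Mdm4 in carfilzomib libraries, against 2.65 and 2.59 times in vehicle libraries. The ratio averaged 6.56 ± 0.0632 with carfilzomib and 2.62 ± 0.0381 with vehicle (SD, n = 2 each), so the difference was far larger than the spread within a group.

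Cdkn1a (gene ID 114851) encodes p21, which binds and inhibits cyclin-dependent kinases. It reached 451 and 419 CPM with carfilzomib, against 253 and 269 CPM with vehicle. The higher vehicle library was well below the lower carfilzomib library. The rise was 1.67-fold, a log2 fold change of 0.74 ± 0.05 (SE; edgeR adjusted p 3.75e-09). Ccng1 (gene ID 25405) encodes cyclin G1, a p53 target that brings protein phosphatase 2A to MDM2. It was at 885 and 931 CPM with carfilzomib, against 561 and 535 CPM with vehicle, again with no overlap. Its log2 fold change of 0.73 ± 0.04 (SE; edgeR adjusted p 1.32e-09) was within the error of that of Cdkn1a. The counts of Ccng1 carried decimals, as did those of Phlda3. Reads may have been divided between similar sequences for such genes, which was not tested, and their values are less certain for that. The same holds for Sesn3, Tob1, Pank1, Triap1, Eda2r, Tp53i11, Gdf15, Usp7, Dyrk2, Tnfrsf21, Tnfrsf11b and Cdc25c, named further on.

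Gadd45a (gene ID 25112), whose product binds PCNA and activates a stress kinase cascade, was at 79.0 and 84.3 CPM with carfilzomib, against 53.5 and 54.5 CPM with vehicle. It rose by 0.60 ± 0.06 (SE) on the log2 scale (edgeR adjusted p 5.40e-07), and the gap between the groups was several times the gap within either. Gadd45a is also a target of the integrated stress response, so p53 is not its sole known inducer. Sesn1 (gene ID 294518), a sestrin that inhibits mTORC1 through GATOR2, was at 33.8 and 36.6 CPM with carfilzomib, against 28.5 and 25.2 CPM with vehicle. The rise was 1.31-fold, a log2 fold change of 0.39 ± 0.08 (SE; edgeR adjusted p 4.44e-04). The groups did not overlap, but the gap between them was only moderately wider than the gap between the vehicle libraries.

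Phlda3 (gene ID 363989), a small protein with a pleckstrin homology domain that keeps AKT from the membrane, was abundant and was not called. It was at 213 and 207 CPM with carfilzomib, against 212 and 239 CPM with vehicle. The first vehicle library lay between the carfilzomib libraries and the second above them. The log2 fold change was -0.10 ± 0.05 (SE; edgeR adjusted p 0.108), and its 95% interval ran from -0.22 to 0.01. This depended on 1 library: without vehicle replicate 1 the log2 fold change was -0.19 and the edgeR adjusted p 0.00442, a call in the lower direction.

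Of the 2 death receptors, Fas (gene ID 246097), the receptor for Fas ligand, showed a small rise and Tnfrsf10b (gene ID 364420), the rat TRAIL receptor, none that passed. Fas was at 23.7 and 22.8 CPM with carfilzomib, against 19.8 and 19.6 CPM with vehicle, on 453, 431, 368 and 363 counts. Its log2 fold change of 0.24 ± 0.08 (SE) had an edgeR adjusted p of 0.0156, and the authors' deposited table does not list Fas. The call was lost with DESeq2, at an adjusted p of 0.190, and without carfilzomib replicate 1, at an edgeR adjusted p of 0.120 with a log2 fold change of 0.21. Tnfrsf10b was at 19.3 and 22.8 CPM with carfilzomib, against 23.6 and 20.8 CPM with vehicle. The libraries of the 2 groups interleaved, and the log2 fold change of -0.08 ± 0.10 (SE) had an edgeR adjusted p of 0.497 and a 95% interval from -0.28 to 0.13.

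**Figure D2:**
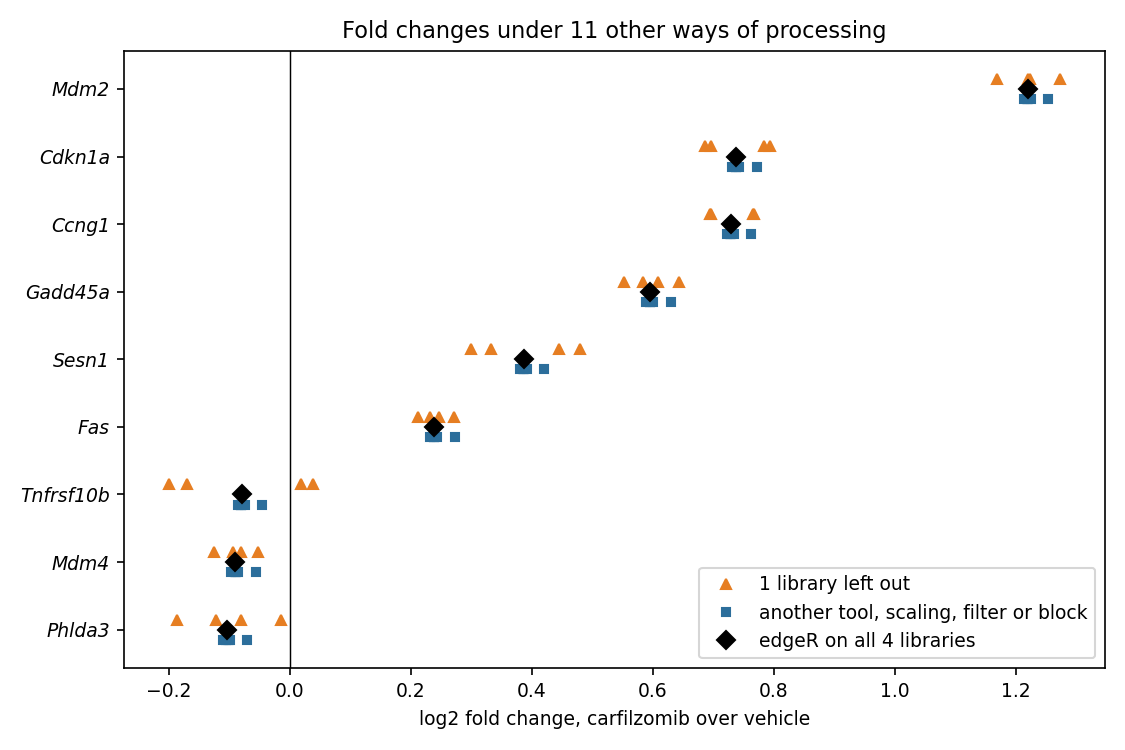
Log2 fold change, carfilzomib over vehicle (horizontal axis), of each of the 9 genes under edgeR on all 4 libraries (black diamonds), with 1 library left out (orange triangles) and with another tool, scaling, filter or block (blue squares). Mdm2 stays between 1.17 and 1.27 in all of them, and Tnfrsf10b falls on both sides of 0.

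In TPM, which allows genes to be compared, the vehicle cells expressed these genes over a wide range. Ccng1 stood first at 323 ± 14.9 TPM, followed by Phlda3 at 304 ± 21.8 and Cdkn1a at 256 ± 8.44 TPM (SD, n = 2 each). Ccng1 and Phlda3 differed by less than their spread. Gadd45a followed at 86.1 ± 0.00707 TPM and Mdm2 at 54.5 ± 3.3 TPM. The remaining 4 genes were low and close together, with Tnfrsf10b at 22.2 ± 2.30, Mdm4 at 20.8 ± 0.955, Sesn1 at 17.7 ± 1.37 and Fas at 14.6 ± 0.276 TPM. Tnfrsf10b and Mdm4 differed by less than their spread. With carfilzomib Ccng1 stood first again at 536 ± 20.2 TPM, followed by Cdkn1a at 426 ± 21.7 TPM, which lay above Phlda3 at 283 ± 5.05 TPM. Gadd45a at 130.3 ± 6.16 TPM and Mdm2 at 128 ± 0.198 TPM kept their places and differed by less than their spread. At the low end Sesn1 stood at 23.6 ± 1.82, Tnfrsf10b at 21 ± 2.5, Mdm4 at 19.6 ± 0.219 and Fas at 17.3 ± 0.445 TPM. The libraries of Tnfrsf10b overlapped those of Sesn1 and of Mdm4, while Sesn1 lay above Mdm4 in both carfilzomib libraries.

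To show how the base sequence before these genes looks, promoter windows from RefSeq (build GRCr8, from 250 bases before to 50 bases after a transcript start) were searched for the consensus p53 decamer, a motif of 10 letters that makes up one side of a p53 response element. The consensus is its own reverse complement, so both strands were covered. Windows of 8 of the 9 genes were matched by gene ID. An exact decamer was present in 4 of these 8 windows, against 7.98% of all 33469 windows in the table. A full site meant 2 decamers at most 13 bases apart, with at most 1 mismatch over the 20 letters and none at the C and G of either decamer. It was present in 3 of the 8, against 0.565% of all windows. These genes were chosen as p53 regulators and targets, so the higher share is no independent result. In the 4 lists of further p53 targets described below, full sites were in 0 of 14, 0 of 18, 1 of 13 and 0 of 6 windows. Exact decamers were in 3, 1, 2 and 0 of the same windows. All 4 windows with a match belong to genes that rose, but so do most of the 8 windows, since all 6 genes that rose had one. Mdm2, the largest rise, and Fas rose without a match. Whether the matches bear on the rises was not tested. In Cdkn1a and Ccng1 the decamers lie side by side with 0 bases between. The matched stretches are shown because they are the matches among these 8 windows, 5′ to 3′ on the strand of the gene and with the decamers in capitals.
Cdkn1a, chr20:7150716-7150765, plus strand: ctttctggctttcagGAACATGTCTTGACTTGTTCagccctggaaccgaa
Ccng1, chr10:25685084-25685126, minus strand: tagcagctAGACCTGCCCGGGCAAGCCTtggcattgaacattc
Gadd45a, chr4:97486823-97486883, minus strand: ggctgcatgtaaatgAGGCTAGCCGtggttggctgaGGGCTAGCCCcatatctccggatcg
Sesn1, chr20:46948532-46948571, plus strand: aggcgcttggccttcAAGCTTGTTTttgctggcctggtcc
The site of Cdkn1a spans bases 201 to 182 before the transcript start used in the table, that of Ccng1 bases 242 to 223 and that of Gadd45a bases 69 to 39, where the decamers are 11 bases apart. A second pairing in the Cdkn1a window also met the rule for a full site and is not shown, so the window held 2. In Sesn1 a lone decamer spans bases 172 to 163. For 4 of the 8 genes that start coincides with the annotated start of the gene, and for the others it does not, so positions hold for the table's start alone. The windows of Mdm2, Mdm4, Phlda3 and Fas held 0 exact decamers, which says only that these letters are not in these windows. The p53 sites known for Mdm2 lie in its first intron, as background. The matches are a description of the sequence and show no binding.

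The closest relatives of these genes were compared next, since they share structure but are mostly not classed as p53 targets. Of 10 paralogs tested, 3 rose, 4 fell and 3 were not called. That is 30% higher and 40% lower, near the 30.6% and 30.1% of all tested genes. The median log2 fold change of the paralogs was -0.04, and it lay between -0.19 and 0.07 when 1 library was left out. Within the sestrins the members parted. Sesn2, which is both a p53 target and a target of ATF4, fell to 53 ± 2.76 CPM with carfilzomib, against 106 ± 0.982 CPM with vehicle, a log2 fold change of -0.99 ± 0.06 (SE; edgeR adjusted p 1.40e-09). Sesn3 rose by 0.35 ± 0.05 (SE) on the log2 scale (edgeR adjusted p 4.43e-05), close to the 0.39 of Sesn1. Sesn1 was at 0.582 and 0.696 times the TPM of Sesn2 in carfilzomib libraries, against 0.253 and 0.227 times in vehicle libraries.

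The GADD45 genes parted likewise. Gadd45g fell by 0.51 ± 0.06 (SE) on the log2 scale (edgeR adjusted p 1.60e-06), and Gadd45b had -0.10 ± 0.07 (SE; edgeR adjusted p 0.253). The TPM of Gadd45a was 1.14 and 1.22 times that of Gadd45g with carfilzomib, against 0.551 and 0.540 times with vehicle. The order of these genes was therefore opposite in the 2 groups. Among the cyclins, Ccng2, a FoxO target, rose by 0.59 ± 0.07 (SE; edgeR adjusted p 2.43e-06), while Ccni fell by 0.26 ± 0.04 (SE) on the log2 scale (edgeR adjusted p 6.36e-05). Ccng1 was 19 and 19.4 times the TPM of Ccng2 with carfilzomib and 17.4 and 17.6 times with vehicle.

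Among the cyclin-dependent kinase inhibitors, the rise of Cdkn1b (p27) was 0.19 ± 0.06 (SE) on the log2 scale (edgeR adjusted p 0.0113), against 0.74 for Cdkn1a. The call was lost with DESeq2, at an adjusted p of 0.0791, and without carfilzomib replicate 2, at an edgeR adjusted p of 0.0596. Cdkn1c (p57) had 0.20 ± 0.12 (SE; edgeR adjusted p 0.152). Without carfilzomib replicate 2 it had 0.34 (edgeR adjusted p 0.0423). Phlda1 fell by 0.89 ± 0.07 (SE) on the log2 scale (edgeR adjusted p 4.19e-08). Phlda2 was near its limit of detection, with 43, 21, 29 and 33 counts in carfilzomib libraries 1 and 2 and vehicle libraries 1 and 2, and its log2 fold change of 0.0093 ± 0.33 (SE) carried no direction. The TPM of Phlda3 was 5.83 and 6.49 times that of Phlda1 with carfilzomib, against 3.45 and 3.67 times with vehicle.

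**Figure D3:**
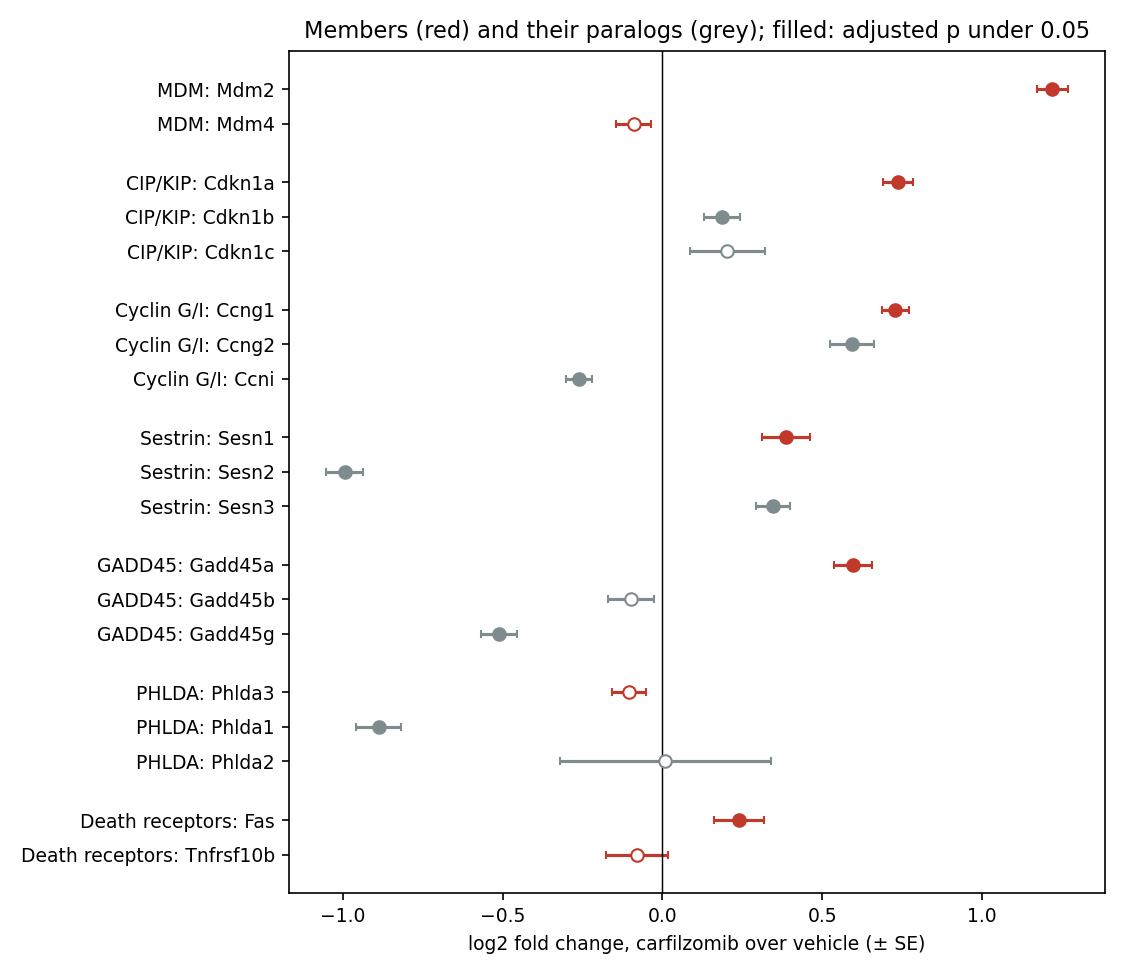
Log2 fold change, carfilzomib over vehicle (horizontal axis), with its SE as bars, for the 9 genes (red) and their paralogs (grey), grouped by family; filled points had an edgeR adjusted p under 0.05. Gadd45a and Sesn1 lie right of 0, at 0.60 and 0.39, while Gadd45g and Sesn2 lie left of it, at -0.51 and -0.99.

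Further p53 targets outside the 9 genes moved both ways. Over 4 lists of such targets, 19 of 55 tested genes rose, 19 fell and 17 were not called, and the median log2 fold change was 0.03. The shares of 34.5% higher and 34.5% lower lie near the 30.6% and 30.1% of all tested genes. Of 17 targets of cell cycle arrest and DNA repair, 7 rose, 3 fell and 7 were not called, and the median was 0.14. Shares were 41.2% higher and 17.6% lower, against 30.6% and 30.1% of all tested genes. Over the 11 genes with whole counts 5 rose and 3 fell, and the median was 0.0013. Xpc, a sensor of DNA damage, rose by 0.72 ± 0.08 (SE; edgeR adjusted p 8.69e-07), and Tob1, an antiproliferative protein, by 0.54 ± 0.06 (SE; edgeR adjusted p 9.88e-07). E2f7, a repressor of S-phase genes, fell to 8.72 ± 0.178 CPM with carfilzomib, against 24.5 ± 0.525 CPM with vehicle (edgeR adjusted p 3.07e-09), and Btg2 fell by 0.34 ± 0.06 (SE) on the log2 scale (edgeR adjusted p 7.04e-05). With DESeq2, 3 of the 17 were higher and 3 lower, against shares of 23.0% and 21.7% of all genes.

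Of 18 tested targets of metabolism, redox control and autophagy, 8 rose, 5 fell and 5 were not called. That is 44.4% higher and 27.8% lower, against 30.6% and 30.1% of all tested genes. The median log2 fold change of the list was 0.24, and 0.14 to 0.25 when 1 library was left out. Abhd4, a lipid hydrolase, reached 493 ± 1.31 CPM with carfilzomib, against 185 ± 6.34 CPM with vehicle, a log2 fold change of 1.41 ± 0.04 (SE; edgeR adjusted p 7.55e-13), larger than that of Mdm2. Steap3, a metalloreductase of iron uptake, rose by 0.85 ± 0.10 (SE; edgeR adjusted p 4.93e-06). Pank1, a kinase of coenzyme A synthesis, fell by 0.64 ± 0.08 (SE) on the log2 scale (edgeR adjusted p 4.77e-06), and Sesn2, which this list shares with the paralogs, is given above.

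Targets of cell death outside the BCL2 family had more falls than rises: of 12 tested, 2 rose, 7 fell and 3 were not called. That is 16.7% higher and 58.3% lower, against 30.6% and 30.1% of all tested genes. The median log2 fold change was -0.23, and -0.37 to -0.24 over 13 tested genes when 1 library was left out. The 2 that rose were Triap1, which is known to protect cells from apoptosis, by 0.98 ± 0.08 (SE; edgeR adjusted p 3.87e-08), and Eda2r, a receptor of the TNF family, by 0.64 ± 0.08 (SE; edgeR adjusted p 1.10e-05). Tp53i11 fell by 0.59 ± 0.07 (SE) on the log2 scale (edgeR adjusted p 2.92e-06) and Traf4, a receptor adaptor, by 0.55 ± 0.08 (SE; edgeR adjusted p 2.07e-05). Counts with decimals affect 6 of the 12, among them Triap1, Eda2r and Tp53i11. Over the 6 genes without them, the 4 calls were all falls.

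Of 8 secreted targets, 2 rose, 4 fell and 2 were not called, and the median was -0.33. That is 25% higher and 50% lower, against 30.6% and 30.1% of all tested genes. Gdf15, a stress-induced cytokine that ATF4 and CHOP also raise, rose by 1.77 ± 0.08 (SE), and Kitlg, the ligand of the KIT receptor, by 0.30 ± 0.08 (SE), with edgeR adjusted p of 2.15e-10 and 0.00320. Under DESeq2 the adjusted p of Kitlg was 0.0629. Thbs1, a secreted matrix glycoprotein, fell by 1.30 ± 0.04 (SE) on the log2 scale (edgeR adjusted p 2.50e-12). It is abundant in fibroblasts, and fibroblast markers were lower in the same libraries, with a median log2 fold change of -0.82 over 8 genes, all of which fell. Their part in the fall of Thbs1 was not tested.

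**Figure D4:**
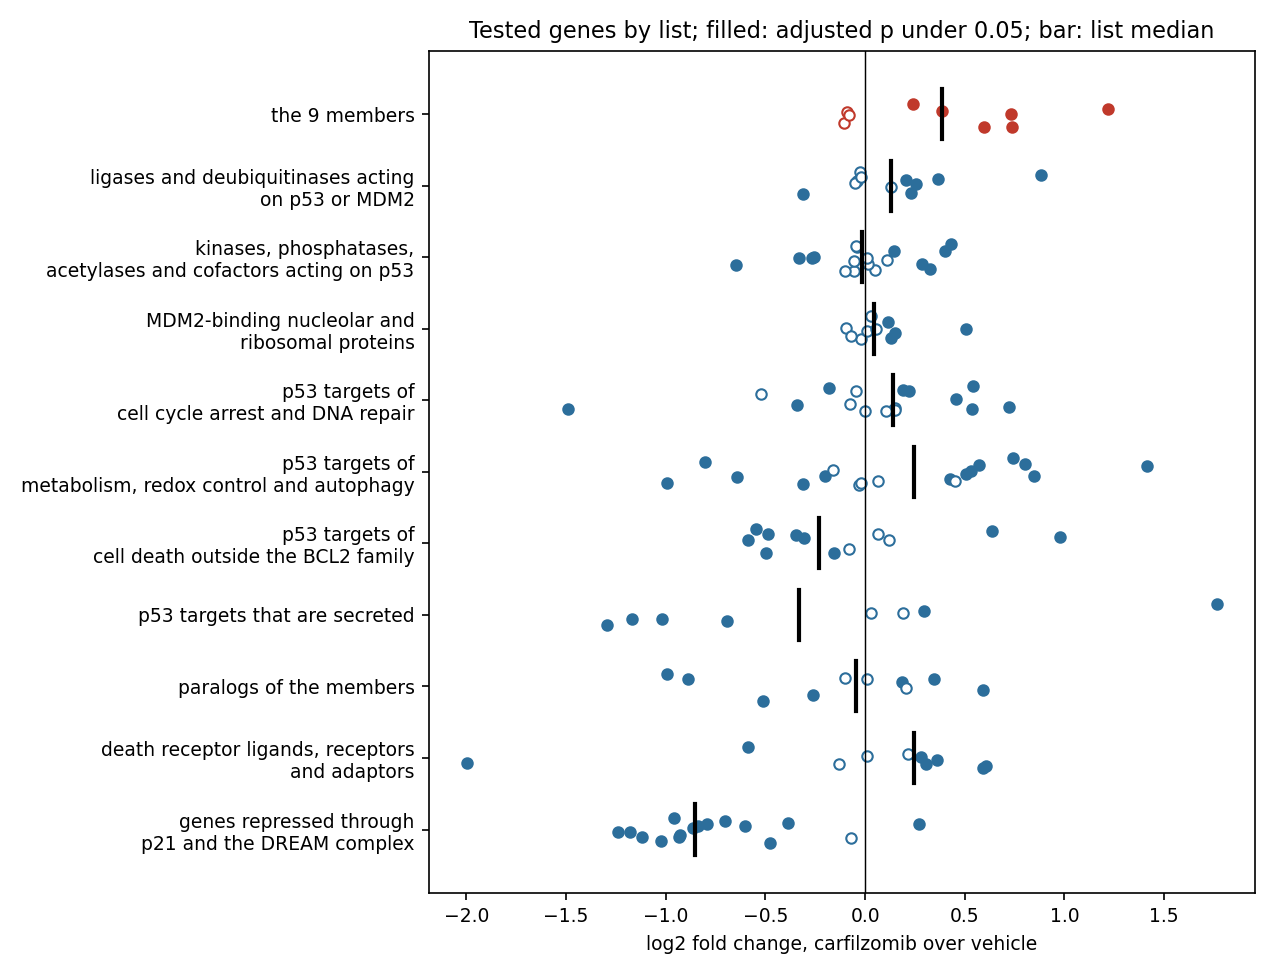
Log2 fold change, carfilzomib over vehicle (horizontal axis), of every tested gene in the 9-gene set (red) and in 10 lists of the wider p53 pathway (blue); filled points had an edgeR adjusted p under 0.05 and black bars are list medians. The 9 genes have a median of 0.39, the secreted targets -0.33 and the genes repressed through p21 and the DREAM complex -0.85.

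Genes that act on p53 or MDM2 were listed in 3 groups. Of 11 tested ligases, conjugating enzymes and deubiquitinases, 5 rose, 1 fell and 5 were not called. The median was 0.13, or -0.03 over the 6 genes with whole counts. Shares were 45.5% higher and 9.09% lower, against 30.6% and 30.1% of all tested genes. Ube4b, an elongation ligase that extends ubiquitin chains on p53, reached 267 ± 0.535 CPM with carfilzomib, against 145 ± 1.93 CPM with vehicle, a log2 fold change of 0.88 ± 0.04 (SE; edgeR adjusted p 1.35e-10). Usp7, a deubiquitinase of both p53 and MDM2, rose by 0.36 ± 0.04 (SE; edgeR adjusted p 4.93e-06). Ube2d1, a conjugating enzyme used by MDM2, had -0.31 ± 0.08 (SE; edgeR adjusted p 0.00510). That call was lost without carfilzomib replicate 2, at -0.18 (edgeR adjusted p 0.124), and without vehicle replicate 2, at -0.28 (edgeR adjusted p 0.0573).

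Of 18 kinases, phosphatases, acetylases and cofactors of p53, 5 rose, 4 fell and 9 were not called, and the median was -0.01. Shares were 27.8% higher and 22.2% lower, against 30.6% and 30.1% of all tested genes. Tp53bp1, a p53-binding protein of DNA damage sites, rose by 0.43 ± 0.05 (SE) and Atr, a checkpoint kinase, by 0.40 ± 0.07 (SE), with edgeR adjusted p of 5.95e-06 and 1.08e-04. Ppp1r13l, which encodes the p53 inhibitor iASPP, fell by 0.65 ± 0.07 (SE) and Dyrk2, a p53 kinase, by 0.33 ± 0.06 (SE) on the log2 scale, with edgeR adjusted p of 2.39e-06 and 4.02e-04. Of 10 nucleolar and ribosomal proteins that bind MDM2, 4 rose and 6 were not called, and the median was 0.04. Shares were 40% higher and 0% lower, against 30.6% and 30.1% of all tested genes. Rps27l, itself a p53 target, rose by 0.50 ± 0.06 (SE; edgeR adjusted p 4.06e-06). Ncl had 0.15 ± 0.04 (SE; edgeR adjusted p 0.00757), and without carfilzomib replicate 1 it had 0.10 (edgeR adjusted p 0.160). The count of calls in this list was 1 without carfilzomib replicate 1 and 2 without carfilzomib replicate 2.

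Around the death receptors, 5 of 10 tested receptors, adaptors and other signalling genes rose, 2 fell and 3 were not called. The median log2 fold change was 0.25. Shares were 50% higher and 20% lower, against 30.6% and 30.1% of all tested genes. Transcripts of the ligands were scarce: Faslg had 1, 8, 7 and 7 counts in carfilzomib libraries 1 and 2 and vehicle libraries 1 and 2, and Tnfsf10, which encodes TRAIL, had 0, 0, 1 and 1 counts to the nearest whole number, so neither was tested. Tnfrsf11b, a soluble decoy receptor that binds TRAIL, fell to 8.48 ± 1.5 CPM with carfilzomib, against 33.9 ± 0.873 CPM with vehicle, a log2 fold change of -2.00 ± 0.10 (SE; edgeR adjusted p 3.45e-10). Tnfrsf21, death receptor 6, rose by 0.59 ± 0.07 (SE; edgeR adjusted p 6.43e-06). Tnfrsf1b, a TNF receptor, had 0.36 ± 0.10 (SE; edgeR adjusted p 0.00629), but an adjusted p of 0.109 with DESeq2. Under DESeq2, 3 of the 10 tested genes of the list were higher and 1 lower, against 23.0% and 21.7% of all genes.

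Genes that p53 represses through p21 and the DREAM complex, most of them mitotic, were lower. Of 16 tested, 14 fell, 1 rose and 1 was not called, and the median was -0.85. That is 6.25% higher and 87.5% lower, against 30.6% and 30.1% of all tested genes. Mybl2, an activator of mitotic genes, fell to 27.8 ± 1.44 CPM with carfilzomib, against 65.7 ± 4.13 CPM with vehicle, a log2 fold change of -1.24 ± 0.07 (SE; edgeR adjusted p 8.47e-10). Cdk1, the kinase of mitotic entry, fell by 1.18 ± 0.06 (SE) on the log2 scale (edgeR adjusted p 2.84e-10). The gene that rose was Cdc25c, a phosphatase that activates CDK1, by 0.27 ± 0.07 (SE; edgeR adjusted p 0.00380); that call was lost with DESeq2, at an adjusted p of 0.0769, and without carfilzomib replicate 1, at an edgeR adjusted p of 0.0652. Markers of several cell types were lower in the same libraries, with median log2 fold changes of -1.96 for cardiomyocytes (9 of 10 genes lower), -0.82 for fibroblasts (8 of 8), -1.70 for smooth muscle (5 of 5) and -1.10 for macrophages (5 of 6). Counts with decimals affect 6 of the 10 cardiomyocyte markers. Over markers with whole counts the medians were -0.62 for cardiomyocytes (3 of 4 lower) and -0.89 for fibroblasts (6 of 6). They were -1.29 for smooth muscle (2 of 2) and -1.11 for macrophages (5 of 5). Of 6 endothelial markers 1 was higher, 2 were lower and 3 were not called. Their median log2 fold change was -0.27, or -0.39 over the 5 with whole counts. Their summed level, which includes the marker that rose, was 32.1 to 32.3 TPM with carfilzomib and 31.9 to 33.0 TPM with vehicle. The part of these markers in this result was not tested.

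The genes whose levels over the 4 libraries were most like those of Mdm2 were sought among 10000 others with a mean of at least 10 CPM, by the Euclidean distance of log2 CPM centred on the vehicle mean. The nearest 5 were Zrsr1, Wdr45, Psmd13, Adcy3 and Vcp, at distances of 0.0463 to 0.0746, with log2 fold changes from 1.20 to 1.24. Psmd13 is a subunit of the 19S proteasome cap and Vcp a segregase that delivers ubiquitinated proteins to the proteasome. They lay at 0.0670 and 0.0746, and Zrsr1 and Wdr45 were nearer, at 0.0463 and 0.0577. Whether Mdm2 shares its regulation with any of the 5 was not tested. With 2 groups of 2 libraries this measure mostly compares fold changes.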

How the data were processed

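RNA-seq covered 4 libraries of cultured newborn rat heart muscle cells, 2 per group, with groups and replicate numbers taken from the sample titles. Columns named as control were taken as vehicle, the only control in the labels. The authors deposited estimated counts per gene, per the file headers not normalised, and TPM, scaled by the authors to gene length and to a fixed total per library. A second table deposited by the authors holds log2 fold changes and, named for DESeq2 in its header, p-values and q-values. Its 6063 genes include 5 of the 9 (Mdm2, Cdkn1a, Ccng1, Gadd45a and Sesn1), and its highest q-value is 0.0499. Fas, called higher here, is not among them. The submitters' processing notes name the build Rnor_6.0 and, without roles, the tools HISAT, Bowtie2, featureCounts 1.6.0, cutadapt 2.0, FastQC 0.11.8, R 3.3.2 and DESeq2. There were 10 further columns of values, which were left unused.

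Estimated counts were rounded. In each library 28.5 to 28.9% of genes have decimals of more than 1e-06, here called split reads; the sources used here do not say why, and near-identical genes may be affected. Genes passing filterByExpr (minimum count 10, total 15) were tested over 4 libraries with edgeR 4.0.16 in R 4.3.3 (TMM, robust quasi-likelihood F test, Benjamini-Hochberg, 0.05). SE is the log2 fold change over the square root of F, and 95% intervals use its t quantile. Alternatives were DESeq2 1.42.0, limma-voom (limma 3.58.1), RLE factors, library size alone, no filter, a filter of 1 CPM in 2 libraries and a total of 50, a replicate block, each library left out, and genes without split reads. Replicates differed by more than sampling noise (chi-square per degree of freedom 2.99 for carfilzomib and 3.32 for vehicle). Same-numbered libraries did not deviate together (correlation -0.0023). The scripts were tested on simulated data. Per the labels, strand is not stated, so whether reads of overlapping genes were kept apart is not known.

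The 9 genes and the 10 pathway lists were chosen with earlier results of these data known. Of the listed genes, Huwe1 and Sco2 were not analysed here. The text names the 9 genes, all tested paralogs, up to 2 largest rises and 2 largest falls per list among called genes of at least 10 CPM, and the 5 nearest to Mdm2; Faslg, Tnfsf10 and Spata18 were added after their counts were seen, and 1 gene that the rule names is not reported here. Promoter sequences are RefSeq's, on GRCr8; no coordinates of the authors' build were used.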

Additional observations from a re-analysis of the deposited data

How the results depend on the processing

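Among the 9 genes, Mdm2, Cdkn1a, Ccng1, Gadd45a and Sesn1 kept their direction and call under all 11 alternatives, with the lowest log2 fold changes of Mdm2 and Sesn1 at 1.17 and 0.30. The count of calls among the 9 was 5 to 7 when 1 library was left out and 5 with DESeq2. Tnfrsf10b, without a call, lay between -0.20 and 0.038 when 1 library was left out, at 0.038 without carfilzomib replicate 1 and 0.018 without vehicle replicate 1. Phlda2 lay between -0.59 and 0.43 in the same fits and was -0.072 with limma-voom. With the replicate block Phlda2 was -0.034, 6 of the 9 genes and 8229 of all genes were called against 8812 without it, and the numbers did not pair the libraries (correlation of same-numbered deviations -0.0023). All genes called numbered 6489 with DESeq2 and 7360 to 7974 with 1 library left out. DESeq2 called 6 of 17 targets of arrest and repair and 4 of 10 death receptor genes, against 44.7% of all genes. Over genes without split reads fewer genes were counted. Calls there numbered 3 of 6 for ligases and deubiquitinases, 2 of 7 for MDM2-binding proteins and 4 of 6 for death targets. They numbered 3 of 4 for secreted targets, 4 of 4 for death receptor genes and 9 of 10 for DREAM-repressed genes. Of all tested genes 60.7% were called, and the share among all genes without split reads was not computed. MDM2-binding proteins had 1 to 4 calls when 1 library was left out. Low counts kept Faslg, Tnfsf10 and Spata18 (6, 9, 10 and 13 counts in carfilzomib libraries 1 and 2 and vehicle libraries 1 and 2) out of the test over 4 libraries and left Phlda2 imprecise. The call of Fas, the smallest of the 6 rises, was lost with DESeq2 and without carfilzomib replicate 1.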
